A study of Arabidopsis thaliana with 6 samples.

Results

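The genes described here are 9 Arabidopsis thaliana genes of cellulose synthesis in the primary wall, the thin extensible wall of growing cells. They were taken by locus tag and not by any measured value, out of 33518 genes in the larger deposited table, of which 24451 had a mean above 0. They comprise 6 catalytic subunits (CESA1, CESA2, CESA3, CESA5, CESA6 and CESA9) and 3 partners of the complex (CSI1, KOR1 and COB). RNA-seq was done on whole seedlings of the Col-0 ecotype, kept for 5 days in constant light, in 3 groups of 2 libraries each. The groups were wild type, IBH1-Ox (35S:IBH1-myc) and the double line PRE1-Ox/IBH1-Ox (35S:IBH1-myc/35S:PRE1-YFP), in which the constitutive 35S promoter drives both transgenes. IBH1 and PRE1 belong to the helix-loop-helix family. The former is an inhibitor of elongation growth, and the latter counteracts it by forming a dimer with it. The double line thus carries IBH1 overexpression as its reference line does. How many independent transgenic lines were sampled, or whether the replicates are separate cultures, is not stated in the labels, so each p-value reflects the spread among these samples alone, and that spread may be technical.

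Cellulose is spun out at the plasma membrane by rosette-shaped complexes of CESA proteins. A primary wall complex is known to need CESA1, CESA3 and a subunit of the CESA6 class, for which CESA6, CESA2, CESA5 and CESA9 are partly interchangeable. CSI1 couples the complexes to cortical microtubules, KOR1 is a membrane-bound endoglucanase needed for normal cellulose synthesis, and COB is a membrane-anchored protein that affects the orientation of the microfibrils in expanding cells. CESA2, CESA5 and CESA9 are also known from the epidermis of the seed coat.

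All 9 genes were measured in IBH1-Ox and the double line, and all passed a limit of 10 normalized counts on average. The clearest difference was at CESA5, which was 1.52-fold higher in the double line, followed by CESA6 at 1.17-fold. CESA1, CESA3, KOR1 and COB stood 8.39% to 11.2% higher without passing the authors' test. Under quantile normalization the sign of the first 3 reversed, at values too small to be called. The differences of CSI1, CESA9 and CESA2 were -3.66%, -4.65% and -5.44%, also without passing it. No member was listed in the authors' filtered table of IBH1-Ox against wild type.

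The start regions of CESA5 and CESA6 are shown first because these genes passed the test, and that of CESA2 because it is another member of the CESA6 class that did not. CESA5 (AT5G09870) lies on the forward strand at chr5:3072870-3078416, CESA6 (AT5G64740) on the forward strand at chr5:25881033-25886728, and CESA2 (AT4G39350) on the forward strand at chr4:18296388-18302192, in the RefSeq annotation of TAIR10.1. Each has 13 exons. The 250 bases before the annotated start are given 5′ to 3′ on the strand of the gene, from chr5:3072620-3072869, chr5:25880783-25881032 and chr4:18296138-18296387. Capitals mark the longest run that the windows of CESA5 and CESA6 have in common.
CESA5: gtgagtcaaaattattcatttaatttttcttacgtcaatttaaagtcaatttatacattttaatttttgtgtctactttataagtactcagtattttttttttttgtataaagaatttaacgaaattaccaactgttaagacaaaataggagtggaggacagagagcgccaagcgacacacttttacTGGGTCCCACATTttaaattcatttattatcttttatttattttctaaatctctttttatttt
CESA6: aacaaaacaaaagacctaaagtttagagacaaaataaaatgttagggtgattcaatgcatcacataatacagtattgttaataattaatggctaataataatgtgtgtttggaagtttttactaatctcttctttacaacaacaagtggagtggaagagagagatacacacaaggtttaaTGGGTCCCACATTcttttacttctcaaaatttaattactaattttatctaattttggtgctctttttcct
CESA2: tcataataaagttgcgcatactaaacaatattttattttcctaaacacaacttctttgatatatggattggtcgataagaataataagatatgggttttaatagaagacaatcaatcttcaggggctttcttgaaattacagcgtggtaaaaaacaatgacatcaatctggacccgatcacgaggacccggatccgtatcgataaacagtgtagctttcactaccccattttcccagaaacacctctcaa

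The shared run is 13 bases long and begins 63 bases before the start of CESA5 and 70 bases before that of CESA6. Among the other 35 pairs of members the longest shared run was 8 to 11 bases. Coding sequences of CESA5 and CESA6 are also the most alike among the CESA members, so most other pairs are less related. On either strand the run occurred in 3 of 27443 windows of the same length (0.0109%). The windows of CESA5 and CESA6 are among these by definition, and the third is that of AT4G39800. The run was noticed after the values were known, and no function is assigned to it. The G-box CACGTG, bound by many bHLH and related factors, was searched on both strands and was in 0 of 9 members' windows, against 6.49% of all windows. The brassinosteroid response elements CGTGTG and CGTGCG were also in 0 of 9, against 5.37% and 1.57%. The general E-box CANNTG, which contains the G-box, was in 5 of 9 windows (CESA1, CESA5, CESA6, CESA9 and CSI1), against 55.3% of all windows. CESA5 carried it as CAACTG 121 bases before its start, and CESA6 as CAAGTG 108 bases before its start.

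Counting can split reads between near-identical genes, so the members' sequences were compared. Coding sequences of CESA5 and CESA6, the closest pair, were 86.0% identical, and those of CESA2 and CESA9 84.7%. The other CESA pairs lay between 68.7% and 78.8%. Of all windows of 50 bases in the coding sequences of the 9 genes, 1 occurred in the coding sequence of another gene, namely the window below, at coding position 1669 of CESA5 and 1705 of CESA6. It is shown because a read of that length from it could not be assigned to 1 gene. Untranslated regions were not compared.
CESA5 and CESA6: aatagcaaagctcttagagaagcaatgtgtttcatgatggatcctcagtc

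The files used here hold group means. For all 9 genes, whole reads per library were recovered from the means of the second comparison. The recovered gene reads were 13865315 and 12138304 in the IBH1-Ox libraries and 9506402 and 7979224 in the double line. The libraries of a group are called deeper and shallower here, since recovered values are not tied to a replicate number. Of each library's recovered gene reads the members made up 0.281% and 0.278% in IBH1-Ox and 0.276% and 0.271% in the double line. These totals leave out genes whose reads could not be recovered, such as RBCS1A in both groups and LHCB1.1 in IBH1-Ox. They thus cover unlike sets of genes in IBH1-Ox and the double line, so the members' percentages cannot be compared between the groups. IBH1 stood at a mean of 158 normalized counts in wild type and 12394 in IBH1-Ox in the first table. PRE1 stood at 131 (IBH1-Ox) and 8404 (double line) in the second, where IBH1 itself differed, at 11090 and 16532. Set against the labelled tissue, the photosynthetic genes RBCS1A and LHCB1.1 were abundant in both groups (271558 and 338153, and 63645 and 15120). In the authors' deposited table of the double line against IBH1-Ox, RBCS1A was higher by 0.32 on the log2 scale (adjusted p = 3.24e-08) and LHCB1.1 fell by 2.07 (adjusted p = 4.54e-223). The 4 floral markers summed to 12.1 and 14.8, with AP1 at 0. Root hair markers summed to 2933 and 2739 in the IBH1-Ox libraries and to 2933 and 3059 in the double line, with 0 of 4 called by the authors in that comparison and 1 (PRP3, higher) by limma-voom with size factors. Against wild type, 3 of these 4 (EXPA7, EXPA18 and PRP3) were listed as higher in IBH1-Ox, at log2 fold changes of 0.69, 0.85 and 0.81 in the authors' deposited table. Seed storage genes summed to 1773 and 752 in IBH1-Ox and to 388 and 379 in the double line, the deeper IBH1-Ox library standing highest. The authors' test called 0 of 3 there, whereas limma-voom called all 3 (CRA1, CRC and PAP85) lower under each of the 3 scalings, with adjusted p of 0.00733, 0.000123 and 0.000127 under size factors. PAP85 was also listed as higher in IBH1-Ox than in wild type (6.09 on the log2 scale, adjusted p = 0.000587 in the authors' deposited table). The part of these tissues in the results below was not tested.

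The first comparison, IBH1-Ox against wild type, addressed which transcripts differ when IBH1 is raised. The authors' deposited table lists 1547 genes, which is 6.25% of the 24762 tests that its p-values imply, and 0 of the 9 members. That table holds adjusted p up to 0.0492 and folds of 1.5 or more in either direction, so a member that is not listed either differed by less or missed the threshold. It gives no wild-type level for the members, and the wild-type libraries could therefore not be set beside the other groups. The members' IBH1-Ox means from the second table were put on the scale of the first by the median ratio of IBH1-Ox means over the genes listed in both, 1.118. On that converted scale the 8 more abundant members would lie between 2183 and 8604 normalized counts, a range in which the first table lists 66 genes, with adjusted p up to 0.0262.

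The second comparison, the double line against IBH1-Ox, addressed which transcripts differ once PRE1 is raised in plants that already overexpress IBH1. Of the 9 members, 2 were higher at an adjusted p below 0.05 in the authors' deposited table, and 0 were lower. Over all tested genes 12.7% were called higher and 9.78% lower. At an unadjusted p below 0.05 the same table has 6 members higher and 0 lower, where 16.6% of all genes were higher and 14.2% lower, and 40.6% of genes of mean 1000 or more were higher. Calls were more frequent among abundant genes, to which 8 of the members belong. At a mean of 1000 or more, 35.3% of 3104 genes were higher and 18.3% lower, and the members' 2 of 9 lie between these shares of all and of abundant genes. The median log2 fold change was 0.12 over the 9 members, 0.07 over the 3104 abundant genes and -0.01 over 19992 genes of mean 10 or more. The libraries of both groups did not overlap for 8 of the 9 members, 6 of them higher and 2 lower. The same held for 34.4% of genes in the higher and 34.5% in the lower direction.

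CESA5, the member of the CESA6 class known from seed coat mucilage, stood at 1921 and 1987 normalized counts in the deeper and shallower IBH1-Ox libraries and at 2885 and 3071 in those of the double line. Both double-line libraries lay far above both IBH1-Ox libraries. Its log2 fold change was 0.61 ± 0.053 (SE, limma-voom, n = 2 libraries in either group), with a 95% interval from 0.50 to 0.72 and an adjusted p of 5.81e-09. The authors' deposited table gives it an adjusted p of 5.89e-17. CESA5 was the one member with both a fold of 1.5 or more and the authors' adjusted p below 0.05. Both limits were passed by 5.56% of all tested genes in this direction. Of the 3104 abundant genes, 8.18% had a higher log2 fold change than CESA5.

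CESA6, the main subunit of its class in growing seedlings, stood at 5160 and 4935 normalized counts in IBH1-Ox and at 6042 and 5769 in the double line. The groups did not overlap, although the gap between them was small beside that of CESA5. Its log2 fold change was 0.23 ± 0.045 (SE, limma-voom, 95% interval 0.13 to 0.32, adjusted p = 0.000385), and the authors' deposited table gives an adjusted p of 0.00116. A larger log2 fold change was found in 32.0% of the abundant genes. Without the deeper double-line library the adjusted p of CESA6 was 0.0809 in limma-voom, at a log2 fold change of 0.19.

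The remaining members of the CESA6 class did not pass the test. CESA2 (AT4G39350) stood at 2659 and 2473 normalized counts in IBH1-Ox and at 2440 and 2413 in the double line. Both double-line libraries were below both IBH1-Ox libraries, with a gap smaller than the difference between the IBH1-Ox libraries. Its log2 fold change was -0.08 ± 0.054 (SE, limma-voom, 95% interval -0.19 to 0.03), and the authors' deposited table gives an adjusted p of 0.480. CESA9 (AT2G21770, chr2:9284391-9289744, forward strand) had 52 and 46 reads in IBH1-Ox and 25 and 30 in the double line, or 49.8 and 50.7 against 39.5 and 56.3 normalized counts. Here the groups overlapped, and the 95% interval of the log2 fold change ran from -0.62 to 0.42 (limma-voom), so no difference was detectable at this depth.

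The core subunits CESA1 (AT4G32410, chr4:15640490-15646844, reverse strand) and CESA3 (AT5G05170, chr5:1530132-1535558, reverse strand) stood higher by a similar small amount, which depended on the scaling. CESA1 stood at 7261 and 7279 normalized counts in IBH1-Ox and at 7920 and 7839 in the double line. CESA3 stood at 7831 and 7568 and at 8578 and 8156 in the same order. The groups did not overlap for either gene, and the gap was wider than the difference between the libraries of either group for CESA1, but not for CESA3. Their log2 fold changes were both 0.12, with SE of 0.040 and 0.042. The authors' deposited table gives adjusted p of 0.147 and 0.120, whereas limma-voom gave 0.0267 and 0.0275.

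Among the partners, KOR1 (AT5G49720, chr5:20197391-20200468, reverse strand) stood at 6257 and 6571 normalized counts in IBH1-Ox and at 7082 and 6919 in the double line. COB (AT5G60920, chr5:24511152-24514338, reverse strand) stood at 2697 and 2704 and at 3026 and 2980. Both genes were higher in both double-line libraries. Their log2 fold changes were 0.13 ± 0.043 and 0.15 ± 0.050 (SE, limma-voom, adjusted p = 0.0227 and 0.0174), and the authors' deposited table gives adjusted p of 0.101 and 0.0782. CSI1 (AT2G22125, chr2:9406059-9414578, forward strand), the microtubule linker, stood at 3453 and 3601 in IBH1-Ox and at 3427 and 3369 in the double line. Its log2 fold change was -0.05 ± 0.049 (SE, limma-voom), with a 95% interval from -0.15 to 0.05 and an adjusted p of 0.717 in the authors' deposited table.

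**Figure D1:**
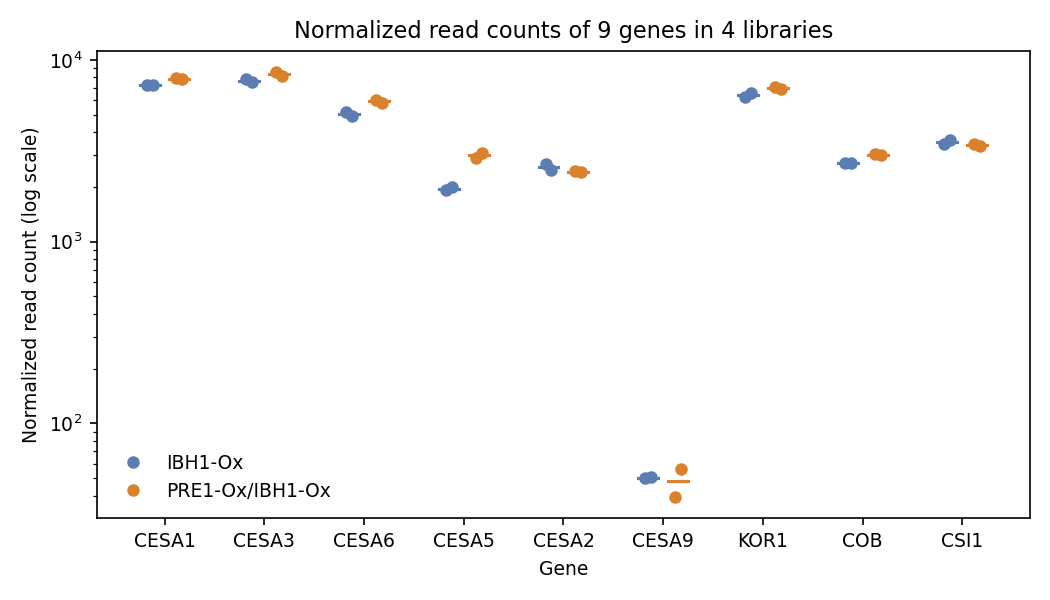
Normalized read counts (log axis) of the 9 genes in the IBH1-Ox and PRE1-Ox/IBH1-Ox libraries; points are single libraries and bars the mean of 2. CESA5 shows the widest gap between the groups, from 1921 and 1987 to 2885 and 3071, and CESA9 lies far below the rest.

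The count of members past the test thus depended on the test and on how libraries were scaled. Limma-voom with the authors' size factors called 6 members higher (CESA1, CESA3, CESA5, CESA6, KOR1 and COB) and 0 lower, where it called 20.8% of 19992 genes higher and 17.3% lower, and 41.6% of genes of mean 1000 or more higher. Scaled to total gene reads, it called 2 higher (CESA5 and CESA6) and 2 lower (CESA2 and CSI1), against 15.1% and 26.4% of all genes. With quantile normalization the same members were called in the same directions, against 18.7% and 18.3%. The total gene reads cover only genes with reads recovered in every library, which leaves out abundant ones such as RBCS1A and LHCB1.1. Scaling to these totals moved the median of all genes by -0.10 on the log2 scale. Relative to that shift, CESA1 and CESA3 at 0.02 were still above the median gene. With quantile normalization the median of all genes moved by -0.01, while the log2 fold changes of CESA1 and CESA3 were both -0.06 and that of KOR1 was -0.01. None of these was called (limma-voom, adjusted p = 0.272, 0.310 and 0.828). With every gene that had a read, 6 members were called higher and 0 lower, against 17.4% and 14.3% of all genes, and with genes of mean 50 or more again 6 and 0, against 23.3% and 18.8%. Without the deeper IBH1-Ox library the counts were 6 and 0 (20.1% and 17.4% of all genes), and without the shallower one 6 and 1 (20.3% and 17.5%). Without the deeper double-line library they were 1 and 0 (15.0% and 10.4%), and without the shallower one 2 and 0 (15.5% and 11.1%). At an adjusted p below 0.01 in the authors' deposited table they were 2 and 0 (9.94% and 6.71%). The sign of CESA1, CESA3 and KOR1 thus changed with the scaling, although no reversed value was called. CESA5 lay at 0.51 or above under each of the 9 alternatives tried.

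**Figure D2:**
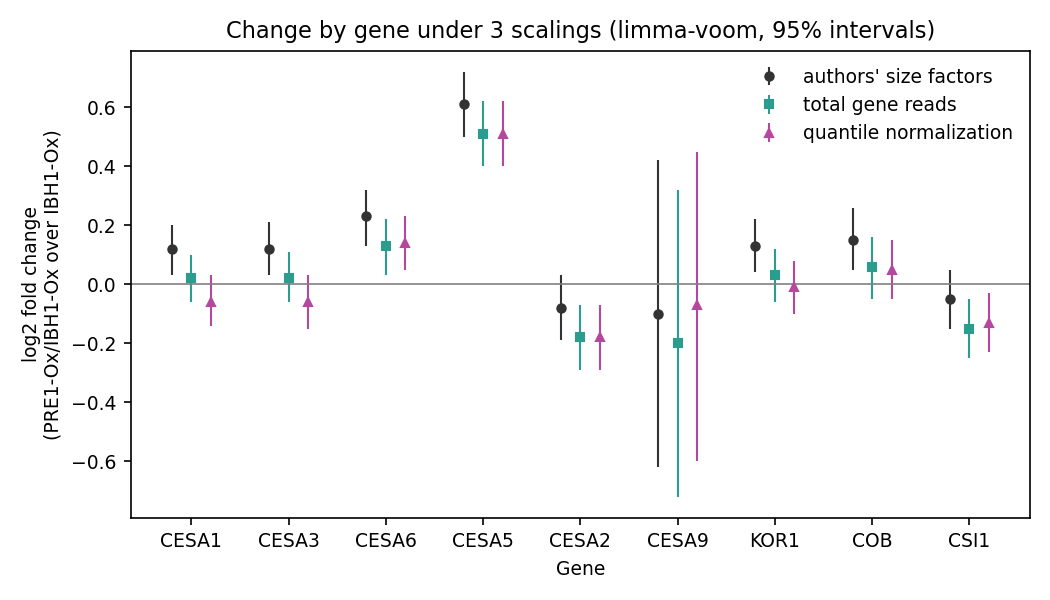
Log2 fold change of the double line over IBH1-Ox for the 9 genes under 3 scalings of the libraries (limma-voom; bars are 95% intervals, 2 libraries per group). CESA5 lies between 0.51 and 0.61 and CESA6 between 0.13 and 0.23, while CESA1 and CESA3 range from -0.06 to 0.12.

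Ratios between genes of 1 library are the same under size factors and total gene reads, but can change under quantile normalization. They are given here per coding length, without quantile normalization. The coding sequences were 3.198 to 3.267 kb long for the CESA genes, 6.453 kb for CSI1, 1.866 kb for KOR1 and 1.371 kb for COB. The level of CESA5 relative to CESA1 was 0.268 and 0.276 in the IBH1-Ox libraries and 0.368 and 0.396 in the double line. That of CESA6 relative to CESA1 was 0.709 and 0.676, and 0.761 and 0.734. Both ratios were higher in each double-line library than in either IBH1-Ox library. The ratio of CESA3 to CESA1 was 1.09 and 1.06 in IBH1-Ox and 1.1 and 1.06 in the double line, so the groups overlapped. The ratio of CSI1 to CESA1 was lower in the double line, at 0.218 and 0.216 against 0.239 and 0.249. With 2 libraries against 2 an exact 2-sided permutation test cannot go below p = 0.333, so none of these ratios was tested.

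Within the CESA6 class the shares of CESA5 and CESA2 differed between the groups without overlap. CESA5 made up 19.8% and 21.3% of the summed level of CESA2, CESA5, CESA6 and CESA9 per coding length in the IBH1-Ox libraries and 25.6% and 27.4% in the double line. Counted in reads, its share was 19.6% (95% Clopper-Pearson interval 18.9% to 20.4%) and 21.0% (20.2% to 21.9%) in IBH1-Ox. In the double line it was 25.3% (24.3% to 26.3%) and 27.2% (26.0% to 28.3%), intervals that cover counting error only. The share of CESA2 went the other way, from 27.1% and 26.1% to 21.3% in both libraries of the double line. A share also falls when other genes of the class rise. The mean level of CESA2 itself was 788.4 (IBH1-Ox) and 745.5 (double line) normalized counts per kb. CESA6 held 52.6% and 52.1% in IBH1-Ox and 52.8% and 50.8% in the double line, with overlapping groups. CESA9 held 0.506% and 0.533%, and 0.343% and 0.494%. The summed level of the class relative to CESA1 was 1.35 and 1.30 in IBH1-Ox and 1.44 in both libraries of the double line.

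**Figure D3:**
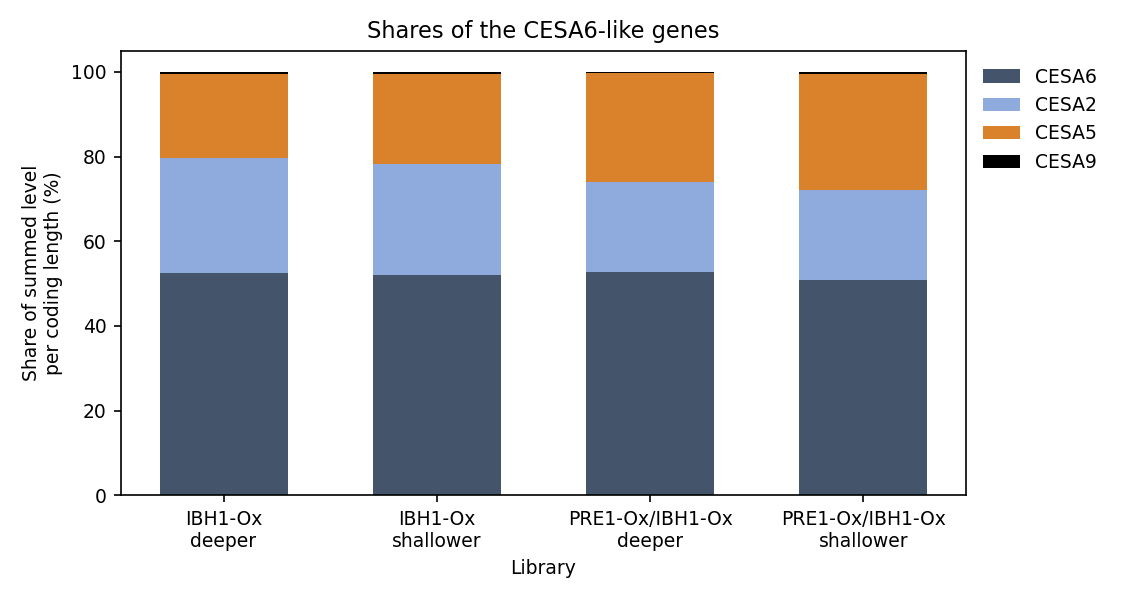
Share of each CESA6-class gene in their summed level per coding length, in percent, for each of the 4 libraries. CESA5 holds 19.8% and 21.3% in IBH1-Ox and 25.6% and 27.4% in the double line, CESA2 holds 27.1% and 26.1% against 21.3%, and CESA6 lies between 50.8% and 52.8%.

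In both groups the order of the levels per coding length was led by KOR1, with 3353 and 3521 normalized counts per kb in IBH1-Ox and 3795 and 3708 in the double line. CESA3, CESA1, COB and CESA6 followed in that order, from 2449 and 2366 for CESA3 to 1585 and 1516 for CESA6 in IBH1-Ox. The next places changed hands. In IBH1-Ox CESA2, at 817 and 760, lay above CESA5, at 598 and 619. In the double line CESA5, at 899 and 957, lay above CESA2, at 750 and 741. CSI1 came after them in both groups, at 535 and 558 and at 531 and 522, and CESA9 was last, at 15.3 and 15.5 and at 12.1 and 17.3. The libraries of neighbours in this order did not overlap in either group. Coding length leaves out untranslated regions, so the order of genes of unlike coding length may depend on this measure.

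Other genes of the pathway were read from lists with 48 genes in 6 groups, and their calls below are those of the authors' deposited table, to be read beside 12.7% of all genes called higher and 9.78% lower. Limma-voom called each gene that the table calls in the same direction under size factors, total gene reads and quantile normalization, except FEI1. With size factors it also called CSI2 and COBL1 lower and CSI3 and XXT2 higher, which the authors' test did not. The remaining CESA genes had 3 of 4 members higher and 0 lower in the authors' deposited table, with a list median of 0.33. These were the secondary wall subunits CESA4, CESA7 and CESA8, at log2 fold changes of 0.32, 0.37 and 0.33 (adjusted p = 0.0108, 0.00254 and 0.0412). CESA10 had means of 4.45 and 1.88 normalized counts and did not pass. Xylem markers moved with the group as well. All 6 listed markers of xylem and secondary wall (those subunits, COBL4, XCP1 and XCP2) were called higher, and their summed level was 3673 and 3942 normalized counts in IBH1-Ox and 4904 and 4877 in the double line. In whole seedlings a change in the number of cells of a type and in RNA per cell cannot be told apart, and the part of xylem in the values of the 9 members was not tested.

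Of 12 listed partners and assembly factors 10 were measured, with 5 higher and 1 lower and a median log2 fold change of 0.31. CTL1, a chitinase-like protein known to affect cellulose crystallinity, rose from 6317 and 6263 to 9519 and 9411 normalized counts (log2 fold change 0.59, adjusted p = 1.66e-22 in the authors' deposited table). Its relative CTL2 rose by 0.43 (adjusted p = 0.00422). AT5G42860 was at 0.55 (adjusted p = 0.00151). AT2G41990 stood at 281 and 290 normalized counts in IBH1-Ox and at 60.0 and 80.8 in the double line, and fell by 2.02 on the log2 scale (adjusted p = 2.31e-17). CSI2 and CSI3, the relatives of CSI1, stood at -0.36 and 0.27 and did not pass the authors' test (adjusted p = 0.109 and 0.0695). Limma-voom called CSI2 lower under all 3 scalings (adjusted p = 0.0302, 0.00665 and 0.0372 for size factors, total gene reads and quantile normalization). It called CSI3 higher under size factors and quantile normalization (adjusted p = 0.0135 and 0.0235) but not with total gene reads (adjusted p = 0.106).

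Among 12 relatives of KOR1 and COB, 10 were measured, with 1 higher (COBL4, 0.47), 1 lower (COBL5, -0.54) and a median of 0.03. COBL4 is the secondary wall member of the COBRA family. Genes of the sucrose-to-UDP-glucose route, which supplies the substrate of cellulose synthase, had 3 of 10 higher and 2 lower, with a median of 0.03. The UDP-glucose pyrophosphorylase UGP2 rose from 1216 and 1207 to 2229 and 2235 normalized counts (log2 fold change 0.88, adjusted p = 1.15e-28). The sucrose synthase SUS3 rose by 0.55 (adjusted p = 7.67e-07), whereas SUS4 fell by 1.21 (adjusted p = 7.60e-05) and the cytosolic invertase CINV1 fell by 0.50 (adjusted p = 2.10e-11). The sucrose synthases SUS3 and SUS4 thus went in opposite directions.

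For xyloglucan, the hemicellulose that coats cellulose, 1 of 5 synthesis genes was called higher and 0 lower, with a median of 0.10. CSLC4, which makes its glucan backbone, stood at a log2 fold change of 0.51 (adjusted p = 6.55e-10). XXT2 was at 0.17, MUR3 at 0.10, XXT1 at 0.01 and XXT5 at -0.01, and none of these passed the authors' test. CSLC4 was also the one gene of the 6 lists in the authors' deposited table of IBH1-Ox against wild type, where its mean was 2024 in wild type and 1330 in IBH1-Ox (log2 fold change -0.61, adjusted p = 1.49e-14). The comparisons share the IBH1-Ox libraries, and the tables were normalized separately. Of 5 kinases that sense the wall, 3 were higher and 0 lower, with a median of 0.18. THE1, known to respond to impaired cellulose synthesis, was at 0.54 (adjusted p = 4.57e-11), HERK1 at 0.32 (adjusted p = 0.00166) and FEI1 at 0.18 (adjusted p = 0.0315). FEI1 did not pass in limma-voom with total gene reads or quantile normalization, at 0.09 in both (adjusted p = 0.187 and 0.203). FER, at 0.10, and FEI2, at -0.06, did not pass.

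**Figure D4:**
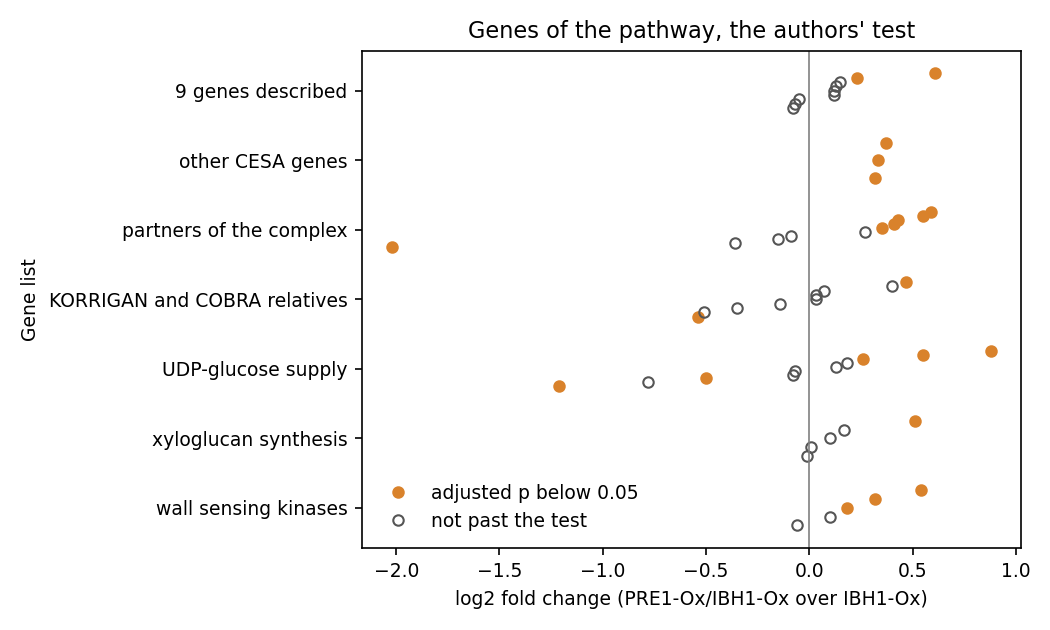
Log2 fold change of the double line over IBH1-Ox for the 9 genes and 6 lists of other pathway genes (genes of mean 10 or more), filled where the authors' adjusted p was below 0.05. The 9 genes lie between -0.08 and 0.61, while other lists reach from -2.02 (AT2G41990) to 0.88 (UGP2).

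The genes with the most similar profile over the 4 libraries were sought among 3066 other genes of mean 1000 or more, by the Euclidean distance of log2 normalized counts centred on each gene's mean. Nearest to the mean profile of CESA1, CESA3 and CESA6 were Phox2 (AT1G62390), AT2G40360 and EMB1467 (AT5G37510), at distances of 0.0170 to 0.0182. Nearest to CESA5 were SDH4 (AT2G46505), AT2G16510 and ADC1 (AT2G16500), at 0.0211 to 0.0325. Such nearness was common, since 349 genes lay within 0.1 of the first profile and 68 within 0.1 of CESA5.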

How the data were processed

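Messenger RNA of whole seedlings was sequenced in 6 libraries (3 groups of 2). The submitters' processing notes name TopHat, DESeq and the TAIR10 build; their versions are not given in the sources used here. Of the 2 tables that the authors deposited, each holds, per the file headers, the group means of normalized counts (a signal, here the mean over libraries of counts divided by size factors), their ratio or fold, its log2, and the test's p-value, raw and adjusted. Entries for reads not assigned to a gene held 15.1% (IBH1-Ox) and 12.5% (double line) of the signal in the second table and were left out. Most of this was reads without a unique alignment, at 12.8% (IBH1-Ox) and 10.3% (double line) of the signal. Their genes of origin, if any, are not given.

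Calls use the authors' adjusted p below 0.05. Each deposited mean, at 10 significant digits, was split into the whole reads of its libraries, with the authors' size factors inferred from the steps of the low means. This worked for 99.87% (IBH1-Ox) and 99.97% (double line) of means above 0, and for all 2854 and 2959 means between 1000 and 9000. Of random values in that range 3.90% and 1.00% also found a pair. Recovered reads were fitted with limma-voom (limma 3.58.1, R 4.3.3), genes of mean 10 or more, tested on simulated data first. Replicates exceeded sampling noise (mean chi-square 2.26 and 1.23, where noise gives 1), and none were merged. Coordinates, coding lengths and sequences come from the RefSeq annotation of TAIR10.1, while the deposited files carry no coordinates. The members, lists and named genes were chosen with earlier results of these data known: all 9 members are named, and of each list the called members with the largest change, at most 4, or all in lists of 5 or fewer. CSI2, CSI3, COBL1 and the single marker genes were named after their values were seen.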

Additional observations from a re-analysis of the deposited data

How the results depend on the processing

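At an adjusted p limit of 0.01 the count of members called in the second comparison stayed at 2 higher and 0 lower. A fold limit of 1.5 left 1 higher. Limma-voom gave 6 higher with size factors, with every gene that had a read and with genes of mean 50 or more, and 2 higher and 2 lower with total gene reads or quantile normalization. Leaving out 1 library in turn gave 1 to 6 higher and 0 to 1 lower: 6 without either IBH1-Ox library, 2 without the shallower double-line library and 1 (CESA5) without the deeper one, and CESA2 was the lower one, without the shallower IBH1-Ox library. Without a library the remaining one is assumed to vary like the other group. CESA5 passed in 9 of 9 alternatives (0.51 to 0.65) and CESA6 in 8 of 9 (0.13 to 0.26). CESA1, CESA3, KOR1 and COB each passed in 5 of 9. Reversed values were -0.06 (CESA1), -0.06 (CESA3) and -0.01 (KOR1) under quantile normalization, none of them called. CESA9 ranged from -0.33 to 0.18 when a library was left out. The cause of these reversals was not tested. Counted in reads, the share of CESA2 in the double line was 21.4% against 21.3% per coding length. No member was listed against wild type under the limits tried. No paired analysis was possible because the recovered libraries carry no replicate number.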
